A study of Homo sapiens with 16 samples.

Results

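Cultures of H9, an established line of human embryonic stem cells, were compared after 5 days and after 3 days of activin A, the last step of a differentiation course toward endoderm. All members of the day 5 and day 3 groups were taken by their labels, which gave 8 of the 16 arrays and 7 of the 14 biological samples: 4 at day 5 (the pair of technical arrays of replicate 4 averaged to 1 sample) and 3 at day 3. Both groups grew in RPMI-1640 with activin A at 100 ng/ml while fetal bovine serum was stepped up through 0%, 0.2% and 2%. The labels do not tie a serum step to a day, so day 5 and day 3 may differ in serum as well as in time, and serum and time cannot be told apart. Cells of the other groups, used here only as earlier points of the course, were at day 1 of activin (3 samples) and undifferentiated at day 0 (4 samples, grown in fibroblast-conditioned medium that held 8 ng/ml of basic FGF). All samples came from 1 cell line at 1 stated passage range, so the spread between samples is that of repeated cultures or preparations of H9, not of different lines.

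Activin A binds the receptors used by nodal, the signal that patterns the primitive streak of the embryo. Given at a high dose it drives stem cells through a streak-like state into definitive endoderm, which expresses SOX17, FOXA2 and CXCR4 and later forms gut, liver and pancreas. Genes of secreted plasma proteins such as the apolipoproteins are known as products of liver, intestine and yolk sac endoderm.

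RNA was measured on Human Exon 1.0 ST arrays as 1 intensity per probe set, and levels below are log2(intensity + 1), so a difference of 1 is a 2-fold change. A probe set's level was not set against another's, because probes differ in brightness. A gene was counted as higher or lower when limma's adjusted p was under 0.05, with Benjamini-Hochberg adjustment over all 18495 probe sets and with the 4 days sharing 1 estimate of the spread. RNA came from whole cultures, so a change in the share of cells of a type and a change in RNA per cell cannot be told apart.

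The library labelled day 3 replicate 2 stood apart from replicates 1 and 3 of its day. Its median correlation with its own group was 0.83, and those of replicates 1 and 3 were 0.905 and 0.901. Within day 5 that correlation was 0.858 for replicate 2 and 0.935 to 0.939 for replicates 1, 3 and 4, and replicate 2 was at least 1 log2 unit from the mean of the other day 5 samples in 7151 probe sets, against 1795 to 3106 for those 3 samples. Day 3 replicate 2 was at least 1 log2 unit above the mean of replicates 1 and 3 in 4753 probe sets and below it by as much in 4542, while replicates 1 and 3 were that far apart in 1064. Its levels of SOX17 (5.52) and EOMES (6.51) were near the day 0 means of 6.28 and 6.61, whereas replicates 1 and 3 had 11.21 and 11.37 for SOX17 and 12.46 and 12.49 for EOMES. Differences of the genes described sample by sample are therefore given also without it.

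Of the 18495 probe sets, 18 were called at day 5 against day 3 (0.0973%), 17 higher (0.0919%) and 1 lower (0.00541%). In all 18 the day 5 and day 3 samples did not overlap, as in 4.98% of all probe sets, and the change was at least 2-fold. The called probe sets carried 1 gene symbol in 13 cases, several symbols in 3 and none in 2, and the 5 that cannot be named to 1 gene were all higher, by 1.63 to 4.99. The named genes that rose, 12 in all by 1.78 to 4.05 on the log2 scale, were APOA1, C5, CLTRN, VCAM1, TMEM100, CDH12, ADAMTS18, SEMA3D, COL21A1, FOXQ1, LMCD1 and BSPRY. PRKG1 fell. These calls rest on the spread estimated from all 4 days: limma on the 7 day 5 and day 3 samples alone called 0 probe sets, with a smallest adjusted p of 0.339 and 583 probe sets at an unadjusted p under 0.05. Whether a gene passed also depended on single samples. The change of each of the 13 named genes kept its sign when any 1 sample was left out. It ran from 3.02 to 4.2 in FOXQ1, 2.92 to 3.51 in VCAM1 and -1.92 to -1.45 in PRKG1. Of the 7 fits that each left out 1 sample, APOA1 was called in 7, CLTRN, VCAM1 and BSPRY in 6, and FOXQ1, SEMA3D and CDH12 in 5. C5 was called in 4, TMEM100 in 3, ADAMTS18, COL21A1 and LMCD1 in 2, and PRKG1 in 1. Leaving out day 3 replicate 1 left 1 probe set called, that of APOA1. The count was 7 once day 5 replicate 2 was dropped, 10 on dropping replicate 1 or replicate 4 of day 5 or the third of day 3, and 29 on dropping the second of day 3.

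**Figure D1:**
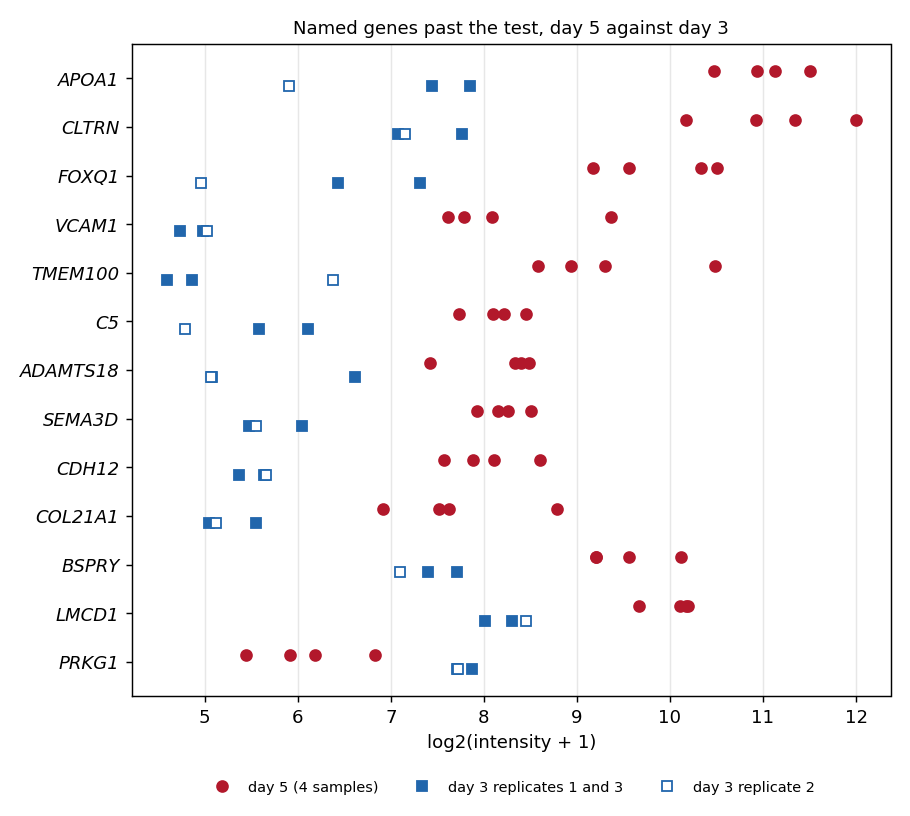
Levels as log2(intensity + 1) of the 13 named genes called at day 5 against day 3, 1 point per biological sample, with day 5 as circles, day 3 replicates 1 and 3 as filled squares and day 3 replicate 2 as open squares. In every gene the day 5 points lie to 1 side of all day 3 points, and the open square lies below both filled squares in APOA1, C5, FOXQ1, BSPRY and ADAMTS18 and above both in TMEM100, LMCD1, VCAM1 and CDH12.

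Among secreted plasma proteins, APOA1 and C5 rose. APOA1, the main protein of high-density lipoprotein, had levels of 11.13, 10.94, 11.50 and 10.47 in day 5 replicates 1 to 4, against 7.44 and 7.85 in day 3 replicates 1 and 3 and 5.91 in replicate 2. The lowest day 5 sample was above the highest day 3 sample by more than the range of either group. The means were 11.01 ± 0.43 at day 5 and 7.07 ± 1.02 at day 3 (SD, n = 4 and 3), a difference of 3.94 ± 0.39 (SE, 95% interval 3.10 to 4.79) or 15.4-fold, with an adjusted p of 0.00293 from limma. Without day 3 replicate 2 the difference was 3.37 (adjusted p = 0.00076 from limma), and APOA1 was called when any of the 7 samples was left out.

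C5, the complement component from which the C5a peptide and the membrane attack complex are made, had 8.10, 8.22, 8.45 and 7.73 at day 5, against 5.58 and 6.11 in day 3 replicates 1 and 3 and 4.79 in replicate 2. The day 5 samples were close together and all above day 3. The difference was 2.63 ± 0.36 (SE), 6.19-fold, with a limma adjusted p of 0.0166, and 2.28 without day 3 replicate 2 (limma adjusted p = 0.0342). C5 was called in 4 of the 7 fits that left out 1 sample (highest limma adjusted p = 0.0995).

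Other genes of the same kinds moved less or did not pass. APOA1 was the only called gene among the 15 measured members of a list of apolipoproteins and lipoprotein assembly genes. The list's median difference was 0.12 (10 above 0 and 5 below), against a median of -0.02 over all probe sets. Without day 3 replicate 2 it was 0.27 (11 above 0 and 4 below), against -0.008. APOA2, another protein of high-density lipoprotein named here after its values were seen, had 10.52, 11.98, 9.90 and 9.66 at day 5, against 7.49 and 8.30 in day 3 replicates 1 and 3 and 5.00 in replicate 2. The groups did not overlap, but the difference of 3.59 ± 0.72 (SE) had a limma adjusted p of 0.106 and was 2.62 (limma adjusted p = 0.135) without replicate 2, a fold size of 6.16, against 12 with all samples. Also named after its values were seen, ABCA1, the transporter that loads cholesterol onto APOA1, had 8.80, 8.02, 10.15 and 10.62 at day 5, against 7.13 and 7.46 in day 3 replicates 1 and 3 and 5.57 in replicate 2 (difference 2.68, limma adjusted p = 0.187, and 2.11, limma adjusted p = 0.255, without it). APOB, the protein of low-density lipoprotein, differed by 0.17, and MTTP, which loads it with lipid, by -0.28, both with adjusted p = 0.999 from limma.

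C5 was likewise the only called gene of 21 measured liver plasma protein genes, with a list median of 0.17 (15 above 0 and 6 below). Without day 3 replicate 2 the list median was 0.41 (17 above 0 and 4 below), against -0.008 over all probe sets. PROS1, the anticoagulant protein S, was chosen after its values were seen and had 9.88, 9.86, 9.23 and 9.02 at day 5, against 7.90 and 7.93 in day 3 replicates 1 and 3 and 6.06 in replicate 2. Its groups did not overlap, and its difference of 2.20 ± 0.41 (SE) had a limma adjusted p of 0.0801 and was 1.58 without replicate 2 (limma adjusted p = 0.0596). The defining genes of fetal and adult liver secretion did not pass: AFP differed by -0.25, ALB by -0.32 and TTR by 0.22, each with a limma adjusted p of 0.999. With day 3 replicate 2 left out they differed by 0.35, -0.28 and 0.65, with limma adjusted p-values of 0.539 to 0.754. Their levels at day 5 were 5.05 to 6.48 for AFP, 4.14 to 5.45 for ALB and 5.83 to 6.30 for TTR, overlapping the day 3 levels of 5.20 to 7.16, 5.13 to 5.24 and 5.16 to 6.64. HNF4A, a liver factor, had no probe set named to it and was not analysed here.

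CLTRN, VCAM1, TMEM100 and CDH12 encode membrane proteins. CLTRN, or collectrin, is a membrane protein that in mouse kidney holds amino acid transporters at the cell surface. It had 10.92, 12, 11.34 and 10.17 at day 5, against 7.08 and 7.77 in day 3 replicates 1 and 3 and 7.15 in replicate 2, which lay within the range of the other day 3 samples. The means were 11.11 ± 0.77 and 7.33 ± 0.38 (SD, n = 4 at day 5 and 3 at day 3), a difference of 3.78 ± 0.50 (SE, 95% interval 2.70 to 4.85), 13.7-fold, with a limma adjusted p of 0.0158. It was 3.69 without day 3 replicate 2 (limma adjusted p = 0.0342) and was not called without day 3 replicate 1 (limma adjusted p = 0.0995).

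VCAM1, an adhesion receptor that binds integrin alpha-4 beta-1 on leukocytes, had 7.62, 9.37, 7.79 and 8.09 at day 5, against 4.98 and 4.73 in day 3 replicates 1 and 3 and 5.03 in replicate 2. The 3 day 3 samples were nearly equal, and day 5 replicate 2 was the highest sample. The means were 8.22 ± 0.79 at day 5 and 4.91 ± 0.16 at day 3 (SD, n = 4 and 3), a difference of 3.31 ± 0.42 (SE, 95% interval 2.41 to 4.20), 9.89-fold, with a limma adjusted p of 0.0158. The difference was 3.37 without day 3 replicate 2 (limma adjusted p = 0.0342), and the call was lost without day 3 replicate 1 (limma adjusted p = 0.0995).

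TMEM100, a membrane protein known in mouse as a target of BMP signalling in endothelium, had 9.30, 10.48, 8.94 and 8.58 at day 5, against 4.59 and 4.86 in day 3 replicates 1 and 3 and 6.38 in replicate 2. Here replicate 2 was the day 3 sample nearest to day 5. The difference was 4.05 ± 0.61 (SE), 16.6-fold, with a limma adjusted p of 0.0268, and 4.60 without replicate 2 (limma adjusted p = 0.0342). TMEM100 was called in 3 of the 7 fits that left out 1 sample (highest limma adjusted p = 0.148). CDH12, a type II cadherin best known from brain, had 7.88, 8.60, 8.11 and 7.57 at day 5, against 5.64 and 5.37 in day 3 replicates 1 and 3 and 5.66 in replicate 2 (difference 2.48 ± 0.33 SE, 5.59-fold, limma adjusted p = 0.0158, and 2.53, limma adjusted p = 0.0342, without it).

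The neighbours of CLTRN and VCAM1 in function did not pass with them. In a list of 18 measured amino acid transport genes CLTRN alone was called and the median was -0.05. SLC6A19 and SLC6A20, neutral amino acid and imino acid transporters, differed by -0.01 and 0.56 with limma adjusted p-values of 0.999. In a list of 16 measured adhesion receptor genes VCAM1 alone was called and the median was -0.07. ICAM1 differed by -0.24 and the beta-1 integrin gene ITGB1 by 0.08, both with a limma adjusted p of 0.999. VCAM1 and TMEM100 are known from endothelium and mesoderm, so those markers are given beside them. None of 16 measured endothelial and blood genes was called, their changes ran from -1.16 to 0.85, and the mean level of the list was 6.24 to 6.47 at day 5 and 6.36 to 6.53 at day 3. PECAM1 differed by 0.05 and CDH5 by -0.07 (limma adjusted p = 0.999 for both), while KDR had 9.64, 8.90, 9.83 and 9.54 at day 5, below the 11 and 10.98 of day 3 replicates 1 and 3 and the 9.92 of replicate 2 (difference -1.16, limma adjusted p = 0.303, and -1.51, limma adjusted p = 0.0666, without it). KDR was about as high in undifferentiated cells, with means of 10.7 at day 0, 10.61 at day 1 and 10.63 at day 3. The mean level of 17 cardiac and later mesoderm genes was 7.06 to 7.57 at day 5, against 7.28 and 7.20 in day 3 replicates 1 and 3 and 6.39 in replicate 2, and none was called. Of them 9 were above 0 and 8 below. MYL4 differed by 3.64, with groups that did not overlap (limma adjusted p = 0.3), and by 2.46 without day 3 replicate 2. HAND1 differed by 1.37, with groups that overlapped (limma adjusted p = 0.791), and by 0.76 without that sample. The part of other cell types in the rise of VCAM1 and TMEM100 was not tested.

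SEMA3D, ADAMTS18 and COL21A1, which encode secreted proteins, were also called higher. SEMA3D, a secreted guidance cue for axons and migrating cells, had 7.93, 8.51, 8.15 and 8.26 at day 5, against 5.48 and 6.05 in day 3 replicates 1 and 3 and 5.55 in replicate 2. Both groups were tight, with SDs of 0.24 at day 5 and 0.31 at day 3, and the difference was 2.51 ± 0.34 (SE), 5.71-fold, with a limma adjusted p of 0.0158, and 2.44 without day 3 replicate 2 (limma adjusted p = 0.0342). The secreted metalloprotease ADAMTS18 had 7.42, 8.48, 8.40 and 8.34 at day 5, against 5.08 and 6.62 in day 3 replicates 1 and 3 and 5.07 in replicate 2. Day 5 replicate 1 was its lowest day 5 sample and day 3 replicate 3 its highest day 3 sample. The difference of 2.57 ± 0.39 (SE), 5.92-fold, had a limma adjusted p of 0.0268 and was 2.30 without day 3 replicate 2, where it was no longer called (limma adjusted p = 0.0625).

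COL21A1, a collagen associated with the surface of fibrils, had 7.63, 6.92, 8.79 and 7.52 at day 5, against 5.55 and 5.05 in day 3 replicates 1 and 3 and 5.12 in replicate 2. Day 5 spread over a wider range than day 3, and the difference was 2.47 ± 0.39 (SE), 5.55-fold (limma adjusted p = 0.0298), and 2.41 without day 3 replicate 2 (limma adjusted p = 0.0684). No collagen or matrix gene in a list of 25 measured members was called, and COL21A1 was not on that list. Its median was 0.36 with all samples (18 above 0 and 7 below) but -0.46 without day 3 replicate 2 (6 above 0 and 19 below), against -0.02 and -0.008 over all probe sets, so its direction depended on that sample.

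FOXQ1, LMCD1, BSPRY and PRKG1 encode proteins of the nucleus or cytoplasm. FOXQ1, a forkhead transcription factor, had 9.56, 9.17, 10.33 and 10.51 at day 5, against 6.43 and 7.31 in day 3 replicates 1 and 3 and 4.96 in replicate 2. The groups did not overlap, and day 3 spread more widely than day 5. The means were 9.89 ± 0.63 at day 5 and 6.23 ± 1.19 at day 3 (SD, n = 4 and 3), a difference of 3.66 ± 0.51 (SE, 95% interval 2.56 to 4.76), 12.6-fold, with a limma adjusted p of 0.0166. Without day 3 replicate 2 the difference was 3.02 (limma adjusted p = 0.0342), and dropping either replicate 4 of day 5 or replicate 1 of day 3 ended the call (highest limma adjusted p = 0.0995). FOXQ1 was the only called gene of 20 measured forkhead factors, whose median was -0.26 (7 above 0 and 13 below). FOXA1 and FOXA2, forkhead factors that open chromatin in endoderm, differed by 0.56 (limma adjusted p = 0.944) and 0.65 (limma adjusted p = 0.999).

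LMCD1, a LIM-domain protein known to bind GATA6, had 9.67, 10.17, 10.19 and 10.11 at day 5, against 8.01 and 8.30 in day 3 replicates 1 and 3 and 8.45 in replicate 2. It had the smallest rise of the named called genes, 1.78 ± 0.27 (SE), 3.43-fold, with a limma adjusted p of 0.0268, and 1.88 without day 3 replicate 2 (limma adjusted p = 0.0342). LMCD1 was called in 2 of the 7 fits that left out 1 sample (highest limma adjusted p = 0.148). BSPRY, a protein with B-box and SPRY domains, had 9.56, 9.21, 10.12 and 9.21 at day 5, against 7.40 and 7.71 in day 3 replicates 1 and 3 and 7.10 in replicate 2 (difference 2.12 ± 0.28 SE, 4.35-fold, limma adjusted p = 0.0158, and 1.97, limma adjusted p = 0.0342, without it). PRKG1, the cyclic GMP-dependent kinase of smooth muscle and neurons, was the called gene that fell. It had 5.92, 5.44, 6.19 and 6.83 at day 5, against 7.87 and 7.71 in day 3 replicates 1 and 3 and 7.72 in replicate 2, so day 3 was tight and every day 5 sample lay below it. The difference was -1.67 ± 0.28 (SE), 3.19-fold, with a limma adjusted p of 0.048, and the call was lost on leaving out any sample but day 5 replicate 4 (-1.70, limma adjusted p = 0.0691, without day 3 replicate 2).

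The 250 bases before the gene start are shown for the markers of the step that the RefSeq promoter table on GRCh38.p14 holds, because these genes rose together. They were VCAM1 (chr1:100719492-100719741, plus strand), CLTRN (chrX:15664806-15665055, minus strand) and FOXQ1 (chr6:1311848-1312097, plus strand), 3 of the 4 markers searched, and APOA1 is named only. Capitals mark matches on either strand to 3 searched letter strings. For factors of the GATA family the letters were AGATAA. For forkhead factors they were TGTTTAC. For the TATA box they were TATAAA.
VCAM1: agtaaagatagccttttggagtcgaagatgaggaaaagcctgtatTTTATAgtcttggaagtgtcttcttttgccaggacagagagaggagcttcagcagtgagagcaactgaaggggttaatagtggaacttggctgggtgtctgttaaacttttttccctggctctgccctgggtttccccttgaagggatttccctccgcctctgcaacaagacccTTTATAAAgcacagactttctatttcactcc
CLTRN: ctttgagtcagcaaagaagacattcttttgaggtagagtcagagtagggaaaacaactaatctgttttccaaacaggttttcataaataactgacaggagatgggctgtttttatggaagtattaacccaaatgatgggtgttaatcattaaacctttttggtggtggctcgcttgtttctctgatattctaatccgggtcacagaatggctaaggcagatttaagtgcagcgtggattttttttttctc
FOXQ1: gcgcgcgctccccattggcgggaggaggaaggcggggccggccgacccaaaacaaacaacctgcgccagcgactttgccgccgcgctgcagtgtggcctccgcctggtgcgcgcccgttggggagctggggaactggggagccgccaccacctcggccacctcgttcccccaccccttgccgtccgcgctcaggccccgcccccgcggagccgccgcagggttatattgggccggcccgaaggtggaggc
VCAM1 held the TATA box letters from 29 to 24 bases before the start on its own strand, overlapping a match on the other strand from 31 to 26, and again on the other strand from 205 to 200. CLTRN and FOXQ1 held none of the 3 letter strings in this window. Over all 35116 windows of this length, 10.7% held the TATA box letters, 9.17% those of GATA factors and 2.98% those of forkhead factors. These matches describe the letters and were not linked to the change in expression.

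The other days show where the day 5 level stood in the course. In all 12 named genes that rose, the day 5 samples were above every other sample of the series. The 12 genes were chosen by the same day 5 and day 3 samples that enter the comparisons with day 0 and day 1. That count of 12 and the counts of calls below were therefore largely set in advance and are no further support. The share of all probe sets with day 5 above every other sample was not counted. All 12 were called higher at day 5 than at day 0, where 2.56% of probe sets were, and 10 of 12 were called higher than at day 1, where 2.0% were. None of the 12 was called by limma at day 3 against day 0, where 0.027% of probe sets were, and 1 of 12, C5, was called without day 3 replicate 2 (1.53, limma adjusted p = 0.0393), where 3.19% were.

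**Figure D2:**
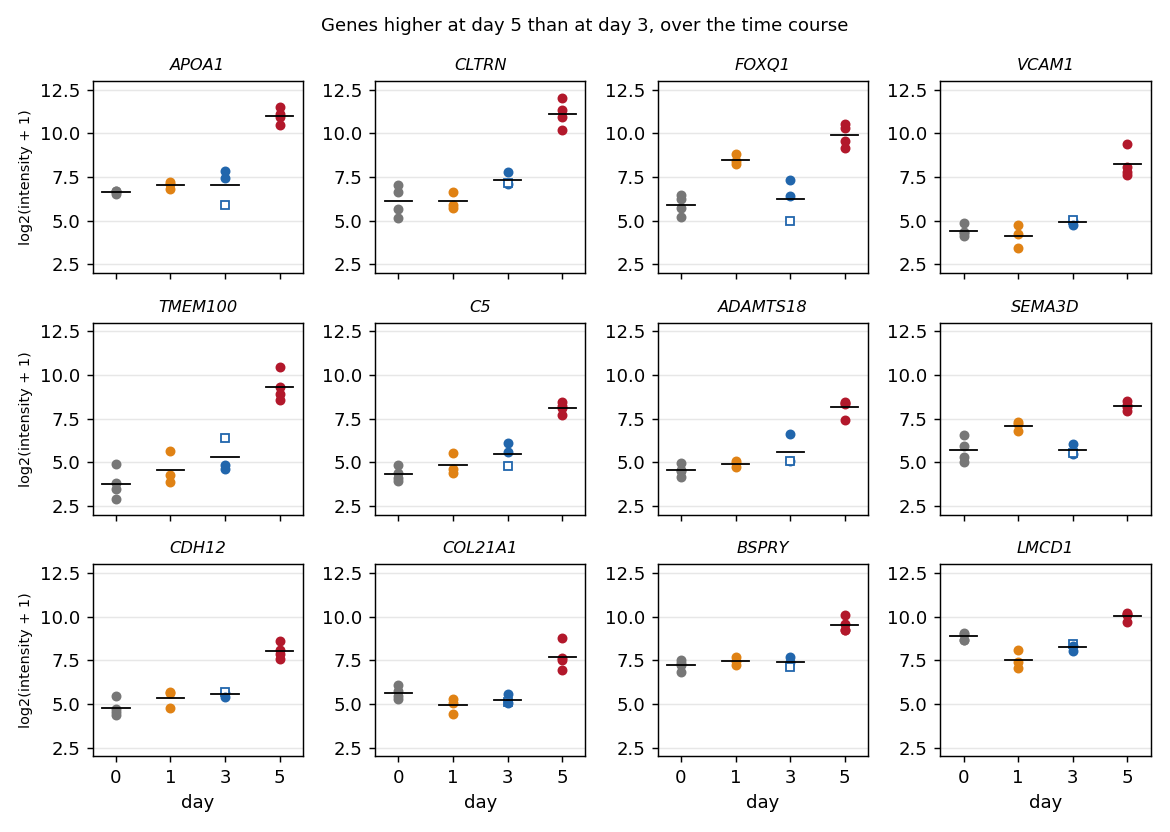
Levels as log2(intensity + 1) of the 12 named genes called higher at day 5 than at day 3 on days 0, 1, 3 and 5, 1 point per biological sample, with a bar at each day's mean and an open square for day 3 replicate 2. All day 5 points are above all others, and FOXQ1 and SEMA3D have a second, lower high at day 1.

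APOA1, with the smallest adjusted p, averaged 6.64 ± 0.08 at day 0 (SD, n = 4), 7.05 ± 0.21 at day 1 (n = 3), 7.07 ± 1.02 at day 3 (n = 3) and 11.01 ± 0.43 at day 5 (n = 4). VCAM1 averaged 4.42 ± 0.33, 4.15 ± 0.69, 4.91 ± 0.16 and 8.22 ± 0.79 on those days. In both genes the step up to day 5 was larger than all earlier differences between days. VCAM1 was a dim probe set, and its mean over all samples was above that of 21.5% of probe sets. C5 (24.3%), TMEM100 (25.2%), ADAMTS18 (25.6%), COL21A1 (27.1%) and CDH12 (27.2%) were nearly as dim. The other named called genes ran from 35.8% (SEMA3D) to 60.0% (LMCD1).

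FOXQ1, SEMA3D and LMCD1 had other courses. FOXQ1 had 8.42, 8.25 and 8.84 at day 1, above its day 0 range of 5.23 to 6.49 and its day 3 range of 4.96 to 7.31, and its day 5 mean was above the day 1 mean by 1.39 (limma adjusted p = 0.198). SEMA3D had 7.28, 7.20 and 6.77 at day 1, with means of 5.72 at day 0 and 5.69 at day 3, and day 5 was 1.13 above day 1 (limma adjusted p = 0.102). These were the 2 of 12 not called against day 1. LMCD1 was lowest at day 1 and averaged 8.86, 7.51, 8.25 and 10.03 on days 0, 1, 3 and 5. PRKG1 averaged 7.75, 8.15, 7.77 and 6.09 on days 0, 1, 3 and 5, and its day 5 level was called lower than that of day 0 (-1.66, limma adjusted p = 0.00251) and that of day 1 (-2.05, limma adjusted p = 0.00218).

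Stage markers of definitive endoderm and streak, by contrast, were not called between day 5 and day 3. SOX17, the endoderm factor, had 11.17, 10.25, 11.74 and 11.49 at day 5, against 11.21 and 11.37 in day 3 replicates 1 and 3 and 5.52 in replicate 2. Its difference was 1.80 with all samples (95% interval -0.53 to 4.13, limma adjusted p = 0.97) and -0.13 without replicate 2 (limma adjusted p = 0.919), so the sign changed with that sample. The same held for GATA6 (1.54 and -0.16) and EOMES (1.46 and -0.53). MIXL1 (1.56 with all samples and -0.002 without replicate 2), FOXA2 (0.65 and 0.01) and GATA4 (1.59 and 0.005) were close to 0 without that sample.

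CXCR4, the chemokine receptor used to sort endoderm, had 13.01, 13.25, 13.62 and 13.34 at day 5, against 11.83 and 12.43 in day 3 replicates 1 and 3 and 7.58 in replicate 2. Its groups did not overlap, and its difference was 2.69 with all samples (95% interval 0.51 to 4.88, limma adjusted p = 0.644) and 1.18 without replicate 2 (limma adjusted p = 0.553). CER1, a secreted nodal and BMP antagonist, had 14.66, 14.57, 14.56 and 14.47 at day 5, against 14.46 and 14.46 in day 3 replicates 1 and 3 and 11.46 in replicate 2, with a difference of 0.10 without that sample (limma adjusted p = 0.938). GSC differed by 2.49 with all samples and 0.58 without replicate 2, HHEX by 1.24 and 0.39, and TBXT, the streak factor, by -0.03 and -0.89, none of them called by limma in either fit.

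**Figure D3:**
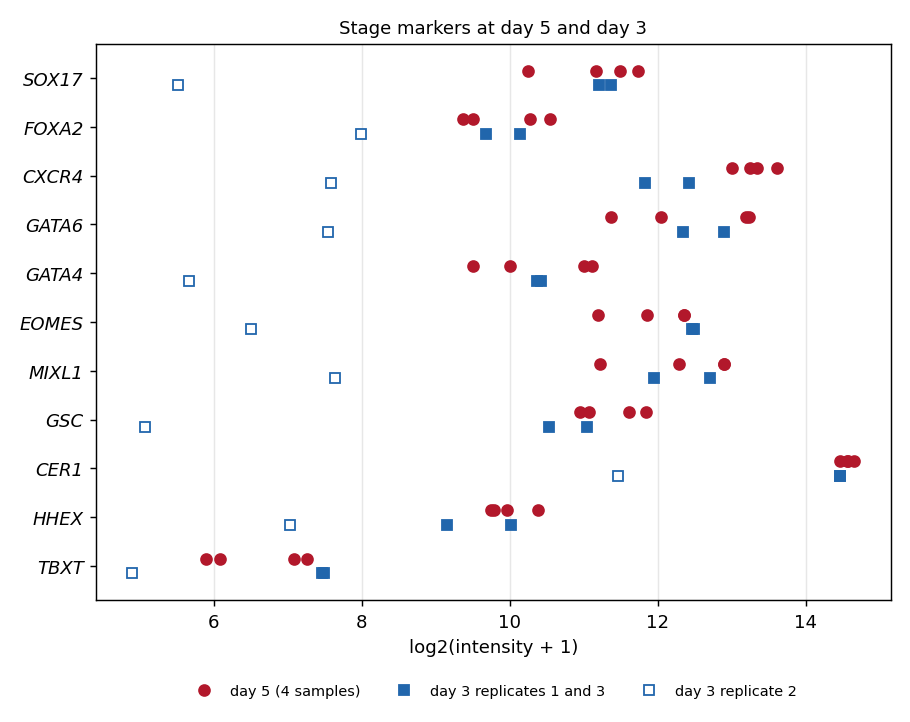
Levels as log2(intensity + 1) of 11 stage markers at day 5 (circles) and day 3 (squares, open for replicate 2), 1 point per biological sample. The open square is the lowest point for every gene, and both filled squares lie below all circles only for CXCR4 and CER1.

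In the definitive endoderm list all 28 measured members were above 0 with all samples, with a median of 1.19, a range of 0.31 to 2.69 and none called. The list was chosen with earlier results of these data known, so this common direction is not a test. Without day 3 replicate 2 the median was 0.12, with 17 above 0 and 11 below and none called. The mean level of the list was 10.97, 10.63, 11.39 and 11.27 in day 5 replicates 1 to 4, against 10.64 and 10.97 in day 3 replicates 1 and 3 and 7.69 in replicate 2. TNNC1, the troponin C of slow and cardiac muscle, came closest to a call in this list, with 11.52, 11.64, 11.31 and 10.94 at day 5, against 8.71 and 9.60 in day 3 replicates 1 and 3 and 7.70 in replicate 2. Its groups did not overlap, and the difference of 2.68 ± 0.46 (SE) had a limma adjusted p of 0.0543, and 2.19 (limma adjusted p = 0.0896) without replicate 2. The primitive streak list had a median of 0.90 over 16 measured genes, and 0.26 without replicate 2, with none called.

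**Figure D4:**
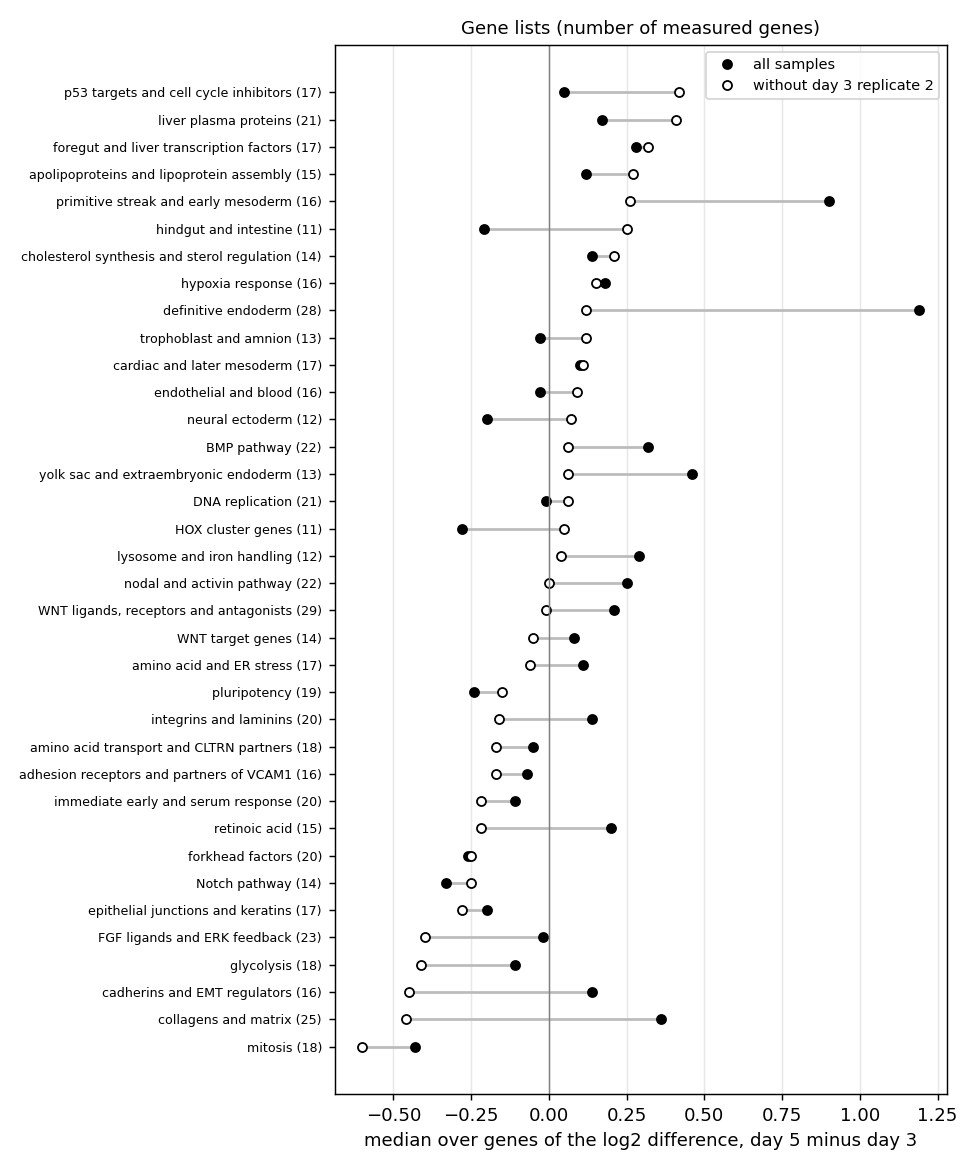
Median over measured members of the log2 difference, day 5 minus day 3, for 36 gene lists, with all samples (filled) and without day 3 replicate 2 (open). The definitive endoderm list moves most between the fits, with 1.19 and 0.12, and the mitosis list is lowest in both, with -0.43 and -0.60.

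Of the 36 lists, 6 had a called member, counting APOA1 in both the apolipoprotein and the yolk sac list, and 14 had a median of the opposite sign without day 3 replicate 2. The mitosis list, genes of spindle assembly and chromosome segregation, was below 0 in all 18 measured members with all samples, with a median of -0.43 and a range of -0.62 to -0.07, where 47.8% of all probe sets were above 0. Without day 3 replicate 2 its median was -0.60, with 16 below 0 and 2 above. Its mean level was 10.89, 10.54, 10.80 and 10.62 at day 5, against 11.21 and 11.34 in day 3 replicates 1 and 3 and 10.85 in replicate 2, so day 5 replicate 1 overlapped day 3 replicate 2. None of its members was called, and the smallest limma adjusted p was 0.644. MKI67, the proliferation marker, had 8.91, 7.85, 10.05 and 10.24 at day 5, against 10.51 and 10.54 in day 3 replicates 1 and 3 and 8.58 in replicate 2, and replicate 2 of both days was the lowest of its day. Its difference was -0.62 (limma adjusted p = 0.999), and -1.27 without day 3 replicate 2 (limma adjusted p = 0.496). CDKN1C, the cyclin-dependent kinase inhibitor p57, had 10.41, 10.31, 11.29 and 10.41 at day 5, against 8.33 and 9.93 in day 3 replicates 1 and 3 and 9.27 in replicate 2 (difference 1.43, limma adjusted p = 0.277, and 1.47, limma adjusted p = 0.242, without it).

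The signalling lists held no called gene with all samples. They were the nodal and activin, BMP, WNT, FGF, retinoic acid and Notch lists. FST, follistatin, which binds and blocks activin, had 11.78, 10.88, 12.46 and 12.14 at day 5, against 10.15 and 10.27 in day 3 replicates 1 and 3 and 8.90 in replicate 2 (difference 2.04 ± 0.43 SE, limma adjusted p = 0.139, and 1.61, limma adjusted p = 0.212, without it). Its groups did not overlap. FGF4, an FGF ligand of the streak, had 5.38, 4.42, 3.50 and 3.20 at day 5, against 6.22 and 5.94 in day 3 replicates 1 and 3 and 6.04 in replicate 2 (difference -1.94, limma adjusted p = 0.277, and -1.95, limma adjusted p = 0.259, without it), and its day 1 mean was 10.18. ALDH1A1, which makes retinoic acid from retinal, had 6.06, 6.26, 5.22 and 4.52 at day 5, against 7.69 and 7.60 in day 3 replicates 1 and 3 and 6.99 in replicate 2 (difference -1.91, limma adjusted p = 0.149, and -2.13, limma adjusted p = 0.117, without it). HEY2, a Notch target, had 6.92, 6.11, 7.14 and 7.08 at day 5, against 7.86 and 7.46 in day 3 replicates 1 and 3 and 8.72 in replicate 2 (difference -1.20, limma adjusted p = 0.342, and -0.85, limma adjusted p = 0.379, without it). Each of the 4 had day 5 and day 3 samples that did not overlap, as in 4.98% of all probe sets. They were picked from their lists by size of change. Of the other genes the naming rule picked from these lists, CER1, FRZB and BMPER did not overlap, and DKK1, APCDD1, FGF17, RARB and HES1 did.

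Leaving out day 3 replicate 2 gave 29 called probe sets (0.157%), 19 higher (0.103%) and 10 lower (0.0541%), of which 11, all higher, were called also with it. This fit has 2 day 3 samples. Of the called probe sets 27 carried 1 symbol, and 17 of those were called only in this fit. BMPER, a secreted BMP-binding protein, had 9.92, 9.28, 10.05 and 9.57 at day 5, against 7.83 and 7.54 in day 3 replicates 1 and 3 and 4.60 in replicate 2. Its difference was 3.05 with all samples (limma adjusted p = 0.0981) and 2.02 without replicate 2 (limma adjusted p = 0.0342), and its means were 5.05 at day 0 and 5.10 at day 1. DDIT4L, an inhibitor of mTORC1 signalling, differed by 2.04 with all samples (limma adjusted p = 0.0981) and 2.39 without replicate 2 (limma adjusted p = 0.0483). PCTP, a carrier of phosphatidylcholine, differed by 1.95 and 2.29, with the same limma adjusted p-values of 0.0981 and 0.0483.

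Among the genes lower at day 5 in that fit were VAV3, RIMS4, TSPAN7, PLXDC2 and APCDD1. VAV3, a guanine nucleotide exchange factor, had 7.05, 6.57, 7.09 and 6.99 at day 5, against 8.76 and 8.44 in day 3 replicates 1 and 3 and 7.79 in replicate 2 (difference -1.40, limma adjusted p = 0.0917, and -1.67, limma adjusted p = 0.0342, without replicate 2). RIMS4, a protein of the presynaptic active zone, had 4.76, 5.12, 5.61 and 5.63 at day 5, against 7.67 and 7.68 in day 3 replicates 1 and 3 and 6.08 in replicate 2 (difference -1.86, limma adjusted p = 0.137, and -2.40, limma adjusted p = 0.0342, without it). In both genes replicate 2 was the day 3 sample nearest to day 5. TSPAN7, a tetraspanin, differed by -1.23 and -1.68 (limma adjusted p = 0.321 and 0.0342) and PLXDC2, a plexin-domain receptor, by -1.17 and -1.55 (limma adjusted p = 0.277 and 0.0394). The day 5 mean of TSPAN7 was 8.77, against 10.23 and 10.69 in day 3 replicates 1 and 3 and 9.10 in replicate 2, and lay between the means of day 0 (9.09) and day 1 (8.22). APCDD1, a WNT antagonist and the WNT target called in this fit, had 7.79, 6.79, 7.55 and 7.02 at day 5, against 9.49 and 9.08 in day 3 replicates 1 and 3 and 5.89 in replicate 2, which was below all of day 5 (difference -0.87, limma adjusted p = 0.999, and -2.0, limma adjusted p = 0.0342, without replicate 2).

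The remaining genes called only without day 3 replicate 2 fell outside the naming rule and were named after their values were seen. CADPS and CYB5R1 were higher at day 5 than all 3 day 3 samples and differed by 1.58 and 1.5 in that fit. LRAT (2.17) and MPPED2 (1.55) were higher at day 5 than in day 3 replicates 1 and 3 but not than in replicate 2, whose LRAT level of 10.81 was above the 9.55 to 9.90 of day 5. CAPN6 (-2.36), CDH10 (-2.04), CDH23 (-1.74), PLEKHG6 (-1.48) and CACNA1G (-1.21) were lower at day 5 in that fit, and in each the value of replicate 2 was within or below the day 5 range.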

How the data were processed

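The deposited table holds 1 gene-level intensity per probe set and array on a linear scale, and hg18 is the genome build named in the submitters' processing notes. How the authors summarised and normalized the probes is not given in the sources used. The table held 18495 probe sets on 16 arrays, with array medians of 245.1 to 246.3 and 636 values below 0. Precision is limited by the number of samples.

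Values were taken to log2(intensity + 1) and technical arrays were averaged, which left 14 biological samples. The contrast was day 5 minus day 3 in lmFit and eBayes of limma 3.58.1 (under R 4.3.3), fitted on the group alone over all 4 days (10 residual and 3 prior degrees of freedom), Benjamini-Hochberg adjustment over all probe sets and a threshold of 0.05. Simulated data with planted changes were used to test the code. A symbol of its own was present on 14577 probe sets, which alone are named, several on 2849 and none on 1069.

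The markers, the 36 gene lists (689 genes, with 579 measured alone, 56 only on a probe set with several symbols and 54 on none) and the tests were chosen with earlier results of these data known. Lists are described by counts and medians with no test, and a gene with several probe sets counts by its brightest. The named genes were the 4 markers of the step, all called genes, the 12 highest and 12 lowest changes called without day 3 replicate 2 whose groups do not overlap and whose higher mean is at least 7, 12 stage markers, and from each list up to 3 members called without that sample or otherwise the 2 largest changes, of which a selection is given. SLC6A19, SLC6A20, APOB, MTTP, ICAM1, ITGB1, FOXA1, PECAM1, CDH5, AFP, ALB, TTR and SOX1 were named as known partners or markers, not for their values, and other genes from outside this rule are marked as such.

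The alternatives were 20 planned ones (technical arrays, replicate block, only the groups compared, normalization, a dimness filter, pseudocount 16, a variance trend, array weights, a threshold of 0.01 and leaving out samples) and 2 added after seeing the data. Promoter sequence came from RefSeq. Figures were drawn with matplotlib 3.10.9 under Python 3.11.15.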

Additional observations from a re-analysis of the deposited data

Results flagged for a closer look

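In 60 of the named genes the highest and lowest of the 4 day 5 samples were compared with the rest of the group. Of these, 3 genes had a sample whose gap to its neighbour, as a share of the group's range, was over Dixon's 95% limit. Chance gives such a gap in about 1 in 20 groups. ADAMTS18 was 7.42 in day 5 replicate 1, against 8.34 to 8.48 in the other day 5 samples. LMCD1 was 9.67 in the same sample, against 10.11 to 10.19 in the others. CDKN1C was 11.29 in day 5 replicate 3, against 10.31 to 10.41 in the others. The check did not cover every gene that the naming rule picked. DDIT3, picked from the amino acid and ER stress list and not flagged, was 10.26 in day 5 replicate 2, against 8.0 to 8.22 in the others. Day 3, with 3 samples, was not examined in this way.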

How the results depend on the processing

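Quantile normalization and median centring left 18 calls each, and all 13 named called genes were called under both, under a pseudocount of 16 and under array weights. The count was 0 in the fit of day 5 and day 3 alone (0 higher and 0 lower by limma, 583 at an unadjusted p under 0.05) and also 0 there without day 3 replicate 2 (0 and 0, 1088 unadjusted), a fit added after seeing the data. A pseudocount of 16 gave 29 (28 higher), a threshold of 0.01 gave 1 (1 higher and 0 lower), and array weights gave 798 (384 higher and 414 lower), with weights of 0.0972 for day 3 replicate 2, 0.133 for day 5 replicate 2 and 17.3 for 1 day 1 sample. No probe set was called lower (0) with all 16 arrays and a random block, with technical array 1 alone or with a variance trend. Without replicate 2 of both days there were 11 higher and 7 lower. Leaving out 1 sample at a time gave 1 to 29 calls, 1 to 19 higher and 0 to 10 lower. The dimmest 25% of probe sets include C5 and VCAM1, so that filter gave no value for them.

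It is unsettled whether the replicate numbers pair the samples. Deviations of same-numbered day 5 and day 3 samples correlated at -0.14 for replicate 1, 0.65 for replicate 2 and 0.56 for replicate 3. With the replicate block 21 probe sets were called, 18 higher and 3 lower, and COL21A1 and LMCD1 were not among them. The block without day 3 replicate 2, added after seeing the data, gave 3 calls (3 higher and 0 lower).

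Signs turned only in genes that were not called. Without day 3 replicate 2 SOX17 differed by -0.13, GATA6 by -0.16, EOMES by -0.53 and AFP by 0.35, and MIXL1 was close to 0 at -0.002. The values were the same in the fit of both days alone when it too left out that sample. Without replicate 2 of both days EOMES differed by -0.28 and AFP by 0.10, in the block without day 3 replicate 2 by -0.20 and 0.32, and with array weights EOMES by -0.06. Leaving out 1 sample at a time gave -0.13 to 2.80 for SOX17, -0.16 to 2.52 for GATA6, -0.53 to 2.46 for EOMES, -0.002 to 2.53 for MIXL1, -0.89 to 0.40 for TBXT, -0.63 to 0.35 for AFP and -0.10 to 0.65 for TTR. The cause was not tested. Of the 36 list medians 25 changed sign under at least 1 alternative. Of the 3 day 3 samples 1 stands apart, and how far signal over background limits the comparison was not tested.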

Other observations

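MYL4, PAX6 and LUM had the differences below, and none was called by limma in either fit. MYL4, an atrial and embryonic myosin light chain, had 11.80, 11.44, 12.41 and 12.23 at day 5, against 8.93 and 10.08 in day 3 replicates 1 and 3 and 5.98 in replicate 2 (difference 3.64, limma adjusted p = 0.3, and 2.46, limma adjusted p = 0.356, without it). PAX6, a factor of eye, brain and pancreatic islets, had 8.16, 9.90, 8.53 and 8.33 at day 5, against 6.82 and 6.25 in day 3 replicates 1 and 3 and 5.24 in replicate 2 (difference 2.63, limma adjusted p = 0.0661, and 2.20, limma adjusted p = 0.117, without it). LUM, the matrix proteoglycan lumican, had 8.66, 10.81, 7.14 and 8.37 at day 5, against 4.73 and 6.27 in day 3 replicates 1 and 3 and 5.18 in replicate 2 (difference 3.35, limma adjusted p = 0.188, and 3.24, limma adjusted p = 0.231, without it). In all 3 genes the groups did not overlap, as in 4.98% of all probe sets, and the 3 were picked from their lists by size of change. Of the cardiac and later mesoderm genes 9 were above 0 and 8 below (median 0.10), and of the collagen and matrix genes 18 were above and 7 below, but 6 above and 19 below without day 3 replicate 2. Of the neural ectoderm genes 2 were above 0, PAX6 among them, and 10 below, but 8 above and 4 below in that fit. SOX1, another neural factor, differed by -0.06 (limma adjusted p = 0.999), and by 0.14 in that fit (limma adjusted p = 0.83).

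CDKN2B, the cyclin-dependent kinase inhibitor p15, had 7.32, 6.61, 7.33 and 8.46 at day 5, against 6.24 and 6.50 in day 3 replicates 1 and 3 and 5.82 in replicate 2 (difference 1.24, limma adjusted p = 0.627, and 1.06, limma adjusted p = 0.487, without it). CENPE, a kinesin of the kinetochore, had 7.65, 6.28, 8.20 and 8.17 at day 5, against 8.94 and 8.61 in day 3 replicates 1 and 3 and 7.05 in replicate 2 (difference -0.62, limma adjusted p = 0.999, and -1.20, limma adjusted p = 0.522, without it). In CENPE replicate 2 was the lowest sample of both days.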
